A study of Mus musculus with 8 samples.

Results

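The circadian clock was examined in whole lung through 10 genes picked by symbol from a table of 23284 genes: the activators Arntl, Clock and Npas2, the repressors Per1, Per2, Per3, Cry1 and Cry2, the loop repressor Nr1d1 and the output factor Dbp. All 10 were in the table and all passed the filter on low values. The lungs came from 8 wild-type (WT) C57BL/6 mice that had received a bone marrow transplant and had then spent 3 days in hypoxia. In 4 recipients the donor marrow lacked the neuronal, inducible and endothelial nitric oxide synthases (triply n/i/eNOS-/-, called NOS-null marrow here), and in the other 4 the donor marrow was WT (WT marrow). Lung cells of the recipients themselves carried all 3 genes in both groups, and the share of donor cells in each lung was not measured here. The sources used here do not give age, sex or the hour at which the lungs were taken.

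The mammalian clock is a feedback loop of transcription. ARNTL (also called BMAL1) pairs with CLOCK or with its relative NPAS2 and switches on genes that carry an E-box, among them the Per and Cry genes, whose proteins return to the nucleus and hold the activators back. In a second loop NR1D1 (REV-ERBα), itself driven by the activators, represses Arntl, which the ROR proteins activate through the same DNA element. DBP and its relatives TEF and HLF carry the rhythm to other genes through the D-box. In lung as in other tissues Arntl and Npas2 peak at about the opposite time of day to Nr1d1 and Dbp, the Per genes follow these, and Cry1 comes later still.

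Promoter stretches are shown for the members in which these elements were found. The windows, from RefSeq (GRCm38.p6), ran from 250 bases before to 50 bases after each listed transcription start, and 9 of the 10 members were matched (all but Per2). Both strands were searched for the E-box CACGTG, the D-box TTATGTAA, the ROR element AGTAGGTCA and the cyclic AMP element TGACGTCA, and no match overlapped another. Capitals mark the match.
Cry1: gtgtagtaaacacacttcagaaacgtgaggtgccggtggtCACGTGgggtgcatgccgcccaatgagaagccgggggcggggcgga
Per1: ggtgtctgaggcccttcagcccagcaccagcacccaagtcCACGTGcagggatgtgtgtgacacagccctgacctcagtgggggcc
Per3: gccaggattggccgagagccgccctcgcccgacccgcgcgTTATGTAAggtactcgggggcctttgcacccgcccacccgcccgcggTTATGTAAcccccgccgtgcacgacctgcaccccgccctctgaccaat
Arntl: aaggcagaaAGTAGGTCAgggacggag
The Cry1 stretch (chr10:85185069-85185154, minus strand) and the Per3 stretch (chr4:151044776-151044910, minus strand) lay upstream of the genes, the latter in an intron of Camta1. The Per1 stretch (chr11:69098743-69098828, plus strand) lay upstream of 1 of the gene's 2 listed starts and in an intron of a longer transcript. The Arntl stretch (chr7:113207530-113207556, plus strand) lay in an exon just past a transcription start. The E-box was found in 2 of the 9 matched members, against 8.09% of all genes with a window. The D-box was found in 1 of 9, at 2 places in the same window (1.11% of genes), the ROR element in 1 of 9 (0.222%) and the cyclic AMP element in none of 9 (2.03%). A match shows the letters in the window and not that a factor was bound there. Only these exact letters were searched, and only within the windows. A member without a match may therefore still carry the element in another form or at another place.

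Values are scaled reads, that is read counts put on a common scale by the authors with 1 factor for each library, and library totals ran from 7767065 to 8625142. A log2 change is the mean log2(scaled reads + 1) with NOS-null marrow less that with WT marrow, and is given with a standard error (SE) and a 95% interval from limma. Genes with a p under 0.05 after Benjamini-Hochberg adjustment over the 14008 tested genes were called. Nothing in the labels tells how mice of a group relate, so a p-value here speaks of the spread between these samples, which may be technical in part. As a check of the labels, Nos2 stood at 13.3, 20.8, 40.4 and 43.5 scaled reads in NOS-null marrow replicates 1 to 4 and at 87.4 to 115 with WT marrow (adjusted p = 0.0221). Nos3 did not pass, at 194 ± 18.0 with NOS-null marrow against 184 ± 15.8 with WT marrow (adjusted p = 0.701). All 9 markers of lung epithelium and endothelium, Sftpc, Ager, Scgb1a1 and Pecam1 among them, were detected in each library. In whole lung, fewer cells of a type and less RNA per cell cannot be told apart.

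The 5 repressor genes stood higher with NOS-null marrow, by 1.42 to 1.88 times in group means, while the 3 activators stood at 0.90 to 1.10 times their WT marrow level. Of the 10 members 1 passed the test, Cry1, which rose. Of all genes tested 4.05% were called, 1.87% higher and 2.18% lower. Groups did not overlap for 3 members, Per2, Per3 and Cry1, all higher with NOS-null marrow, against 7.82% of tested genes apart in that direction, 9.29% in the other and 17.1% in either. An unadjusted p under 0.05 was met by 5 members, the 5 repressors, against 13.3% of tested genes higher at that level and 26.6% in either direction. The median log2 change of the 10 members was 0.48 and that of all tested genes 0.00.

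**Figure D1:**
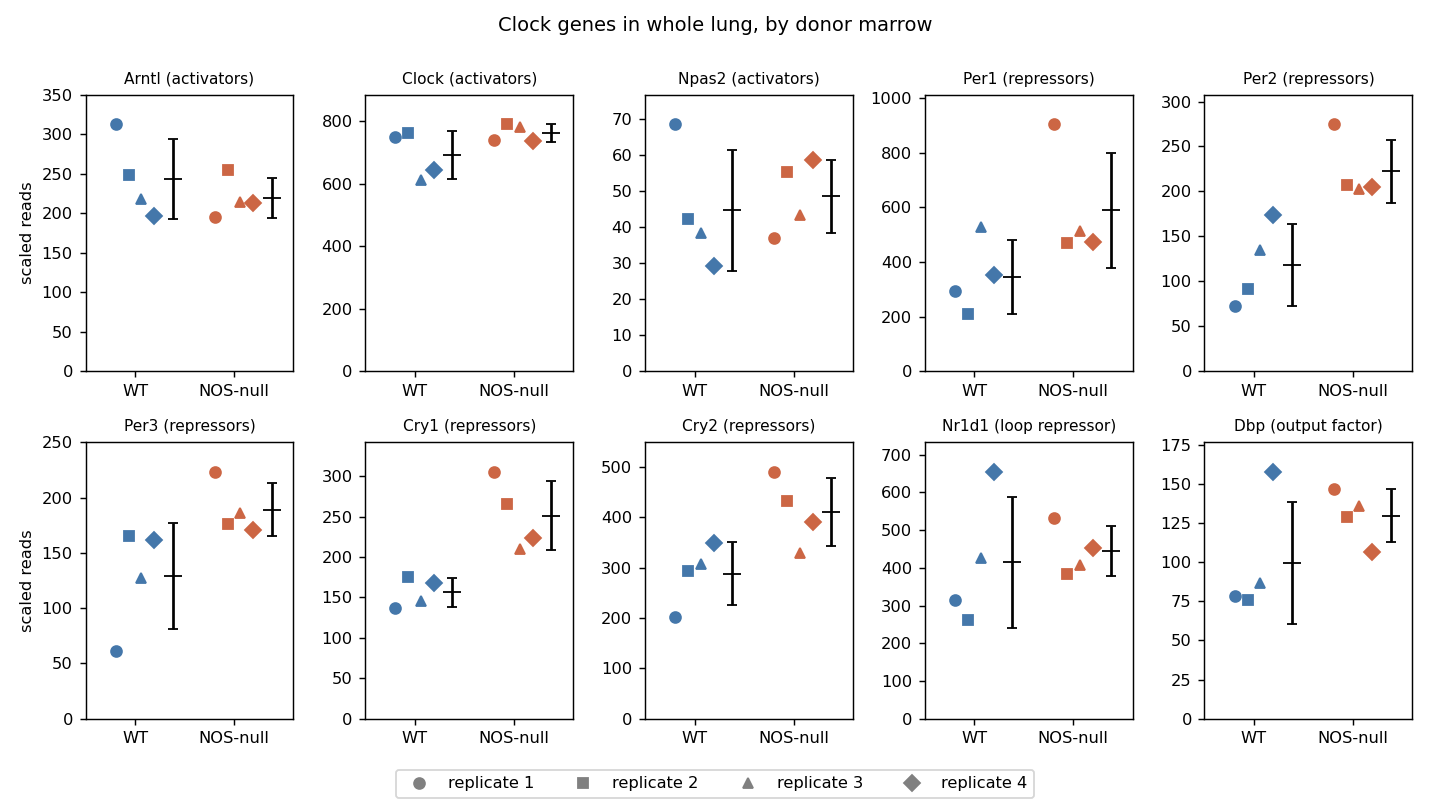
Scaled reads (y axis, linear, from 0) of the 10 clock genes in each library, by donor marrow (x axis), with 1 symbol per replicate number and the mean ± SD (n = 4) beside each group. Per2, Per3 and Cry1 are separated between the groups, while Per1, Cry2, Arntl, Clock, Npas2, Nr1d1 and Dbp overlap.

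Cry1 encodes a cryptochrome, a potent repressor of the activator pair (chromosome 10, 85131700 to 85185064, GRCm38). It stood at 306, 266, 210 and 224 scaled reads in NOS-null marrow replicates 1 to 4 and at 137, 175, 146 and 167 in WT marrow replicates 1 to 4. Every NOS-null marrow library lay above every WT marrow library, and replicates 1 and 2 of NOS-null marrow were the highest of all. The means were 251 ± 43.2 and 156 ± 17.8 (SD, n = 4 each), a log2 change of 0.67 (SE 0.14, interval 0.37 to 0.98, limma adjusted p = 0.0316). The call was not kept without NOS-null marrow replicate 2 (adjusted p = 0.0979) or without WT marrow replicates 1, 2, 3 and 4 (0.106, 0.0649, 0.0842 and 0.0553). With NOS-null marrow replicates 1 and 2 both left out the log2 change was 0.48 (adjusted p = 0.123), and over all 16 alternatives the adjusted p ran from 0.0261 to 0.123.

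Marker levels of some other cells differed between the same groups, while summed FPKM of fibroblast, cardiac muscle, monocyte and T cell genes overlapped. The summed FPKM of 4 neutrophil genes was 1660 to 40974 with NOS-null marrow and 569 to 1577 with WT marrow. The highest of these, 40974, was NOS-null marrow replicate 1, which also held the highest value of each of the 5 repressors, and the other 3 reached at most 3707. The sum was also higher for 4 alveolar macrophage genes (688 to 2004 against 510 to 620). Chi3l3 had by far the most scaled reads of the 4, and the 4 did not change in the same direction. Of these, Siglec5 fell from 125 ± 17.4 to 43.1 ± 7.91 scaled reads (log2 change −1.52, adjusted p = 0.00248). Marco stood at 0 to 15.2 against 43.5 to 49.6 scaled reads (adjusted p = 0.0585) and Chi3l3 at 13612 ± 6503 against 6055 ± 509 (1.05, adjusted p = 0.0563). The summed FPKM of 4 erythroid genes was 3030 to 5431 and 2157 to 2638. Sums were lower with NOS-null marrow for 4 B cell genes (4.25 to 50.1 against 66.3 to 134), 4 natural killer cell genes (10.7 to 21.6 against 29.2 to 40.8) and 4 smooth muscle genes (916 to 1200 against 1856 to 2145). By limma 3 of 4 erythroid genes rose and 3 of 4 smooth muscle and 2 of 4 natural killer cell genes fell, while none of the 4 neutrophil and 4 B cell genes passed. The part of these cells in the Cry1 difference, and in those of the other members, was not tested.

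Cry2, the second cryptochrome gene (chromosome 2, 92403646 to 92434043), stood at 491, 432, 330 and 390 with NOS-null marrow and at 203, 293, 308 and 350 with WT marrow. The groups overlapped only through NOS-null marrow replicate 3, which lay below WT marrow replicate 4. The log2 change was 0.52 (SE 0.17, interval 0.14 to 0.91, adjusted p = 0.0978), and Cry2 did not pass.

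Per2 encodes a period protein, which carries the cryptochromes into the repressor complex (chromosome 1, 91415982 to 91459324). Its values were 275, 207, 203 and 204 with NOS-null marrow and 72.5, 91.8, 135 and 174 with WT marrow. The groups did not overlap, replicates 2 to 4 of NOS-null marrow lay close together, and WT marrow replicate 1 was the lowest of the 8. The log2 change of 0.97 (SE 0.24, interval 0.43 to 1.51) was the largest among the members, with an adjusted p of 0.0526 by limma, just above the threshold. Without WT marrow replicate 4, the WT marrow library of highest Per2, it passed (1.18, adjusted p = 0.0379). It passed in no other of the 16 alternatives, over which the adjusted p ran from 0.0379 to 0.173.

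Per3, a period gene whose loss is known to disturb rhythms less than that of the other 2 (chromosome 4, 151003652 to 151044665), stood at 224, 176, 186 and 171 against 61.6, 165, 127 and 162. The groups were apart by a narrow gap, 171 against 165, and WT marrow replicate 1 was again the lowest. The log2 change was 0.64 (SE 0.27, interval 0.03 to 1.25, adjusted p = 0.17), and it was 0.32 without WT marrow replicate 1.

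Per1, a period gene that also responds quickly to glucocorticoids and cyclic AMP (chromosome 11, 69095217 to 69109960), stood at 905, 469, 513 and 472 against 292, 209, 528 and 354. NOS-null marrow replicate 1 was far above the other libraries, and WT marrow replicate 3 lay above NOS-null marrow replicates 2 to 4. The log2 change was 0.79 (SE 0.28, interval 0.16 to 1.42, adjusted p = 0.116), and without NOS-null marrow replicate 1 it was 0.57.

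The activators showed smaller differences. Arntl, whose protein pairs with CLOCK or NPAS2 (chromosome 7, 113207465 to 113314126), stood at 196, 255, 214 and 213 with NOS-null marrow and at 313, 248, 218 and 197 with WT marrow. The groups overlapped along most of their range, with WT marrow replicate 1 highest. The log2 change was −0.14 (SE 0.15, interval −0.46 to 0.19, adjusted p = 0.576), and it was −0.01 without WT marrow replicate 1.

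Clock, the partner of ARNTL and in most tissues the least rhythmic gene of the loop (chromosome 5, 76209868 to 76304792), stood at 738, 790, 782 and 736 against 748, 763, 612 and 643. It varied least of the members, with NOS-null marrow libraries differing by 1.07 times from lowest to highest. Its log2 change was 0.14 (SE 0.09, interval −0.05 to 0.34, adjusted p = 0.31).

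Npas2, which can stand in for Clock (chromosome 1, 39193731 to 39363236), had the fewest reads, at 36.9, 55.2, 43.4 and 58.7 against 68.6, 42.2, 38.4 and 29.3. The WT marrow values spanned all of the NOS-null marrow values. The log2 change of 0.16 (SE 0.26, interval −0.41 to 0.74, adjusted p = 0.713) was −0.01 without WT marrow replicate 4.

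Nr1d1, the repressor of Arntl (chromosome 11, 98767932 to 98775333), stood at 533, 384, 406 and 454 against 315, 261, 426 and 655. Its highest and its lowest library were both WT marrow, replicates 4 and 2. The log2 change was 0.18 (SE 0.24, interval −0.36 to 0.72, adjusted p = 0.663), and it was −0.01 without WT marrow replicate 2. Nr1d1 shares 263 exonic bases with Thra, a thyroid hormone receptor gene on the other strand, and the strand setting of the counting is not given in the sources used here, so reads there could not be told apart. Thra stood at 567 ± 60.5 against 561 ± 60.2 scaled reads (log2 change 0.02, adjusted p = 0.935).

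Dbp, the output factor that acts through D-boxes (chromosome 7, 45705088 to 45710203), stood at 147, 129, 136 and 107 against 78.5, 75.9, 86.7 and 158. All 4 NOS-null marrow libraries lay above WT marrow replicates 1 to 3, and WT marrow replicate 4 was the highest of the 8. The log2 change was 0.43 (SE 0.22, interval −0.06 to 0.93, adjusted p = 0.24). It was 0.68 without WT marrow replicate 4 (adjusted p = 0.0532), and over all 16 alternatives the adjusted p ran from 0.0532 to 0.557. Dbp shares 539 exonic bases with Sphk2 on the other strand, a sphingosine kinase gene at 227 ± 36.1 against 194 ± 31.2 (log2 change 0.23, adjusted p = 0.317).

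**Figure D2:**
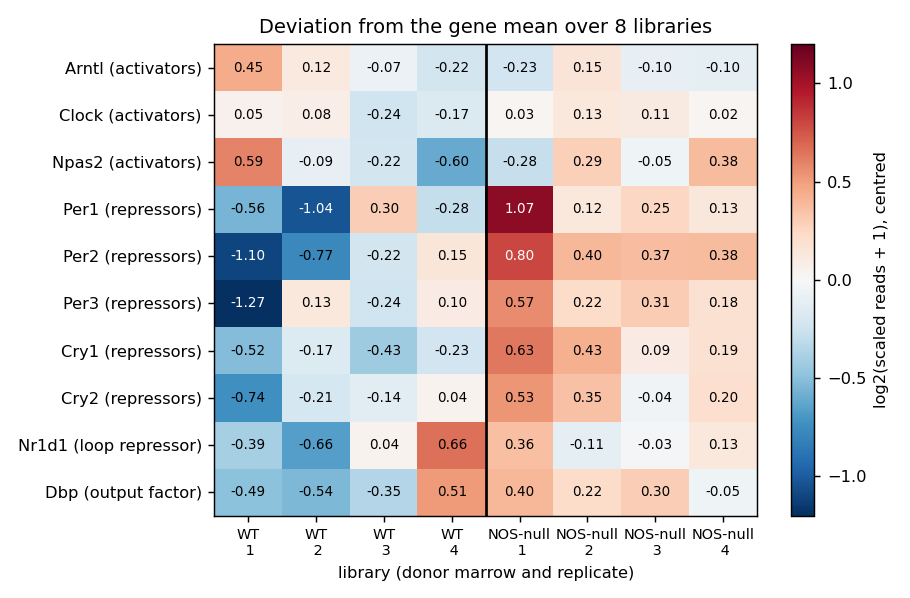
Deviation of each clock gene from its own mean over the 8 libraries, in log2(scaled reads + 1), with libraries in columns and genes in rows (red above, blue below the mean). Per3 reaches −1.27 in WT marrow replicate 1 and Per1 1.07 in NOS-null marrow replicate 1, while Nr1d1 and Dbp are highest in WT marrow replicate 4.

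The WT marrow lungs differed among themselves in their activator and repressor genes. WT marrow replicate 1 held the highest Arntl and Npas2 and the lowest Per2, Per3, Cry1 and Cry2 of all 8 libraries. WT marrow replicate 4 held the highest Nr1d1 and Dbp and the lowest Npas2. From the lowest to the highest WT marrow library Per3 differed by 2.68 times, Per1 by 2.53, Nr1d1 by 2.51, Per2 by 2.40, Npas2 by 2.34 and Dbp by 2.08. The log2 SD within WT marrow ran from 0.16 (Clock and Cry1) to 0.66 (Per3), where the median over all tested genes was 0.16.

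Within NOS-null marrow 9 of the 10 members had a smaller log2 SD than within WT marrow, and Cry1 had a larger one (0.24 against 0.16). With NOS-null marrow the log2 SD ran from 0.05 for Clock to 0.45 for Per1, with a median over all tested genes of 0.19. Per2, Per3, Nr1d1 and Dbp had log2 SDs of 0.21, 0.17, 0.21 and 0.19 with NOS-null marrow against 0.56, 0.66, 0.58 and 0.49 with WT marrow. Whether the spread itself differed between the groups was not tested.

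Ratios within a library put activators and repressors on 1 scale and hardly depend on the scaling between libraries. The log2 ratio of Arntl to Per2 was −0.49, 0.30, 0.07 and 0.06 in NOS-null marrow replicates 1 to 4 and 2.09, 1.43, 0.69 and 0.18 in WT marrow replicates 1 to 4. WT marrow replicate 4 lay among the NOS-null marrow values and the other 3 WT marrow libraries above all of them. The log2 ratio of Arntl to Cry1 was −0.64, −0.06, 0.03 and −0.07 against 1.18, 0.50, 0.58 and 0.23, with no overlap. That of Clock to Cry1 did not overlap either, at 1.27 to 1.89 against 1.94 to 2.44. The other 19 of the 21 ratios of an activator to a repressor, Nr1d1 or Dbp overlapped between the groups, that of Npas2 to Cry1 among them. Both ratios without overlap hold Cry1, whose own values did not overlap. The ratio of Arntl to Nr1d1 spanned −0.01 to −1.73 in WT marrow and −0.59 to −1.44 in NOS-null marrow.

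The mean deviation of the 5 repressors from their means over the 8 libraries was 0.72, 0.30, 0.20 and 0.22 with NOS-null marrow and −0.84, −0.41, −0.15 and −0.04 with WT marrow. The mean deviation of the 3 activators was −0.16, 0.19, −0.01 and 0.10 against 0.36, 0.03, −0.18 and −0.33. With WT marrow the library of highest activators was that of lowest repressors, and the library of lowest activators that of highest repressors. With NOS-null marrow the mean deviation of the repressors was positive in all 4 libraries, while that of the activators took both signs. The activator mean minus the repressor mean was lower by 0.66 (log2) in NOS-null marrow, given as a description with no test, and by 0.37 without WT marrow replicate 1.

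**Figure D3:**
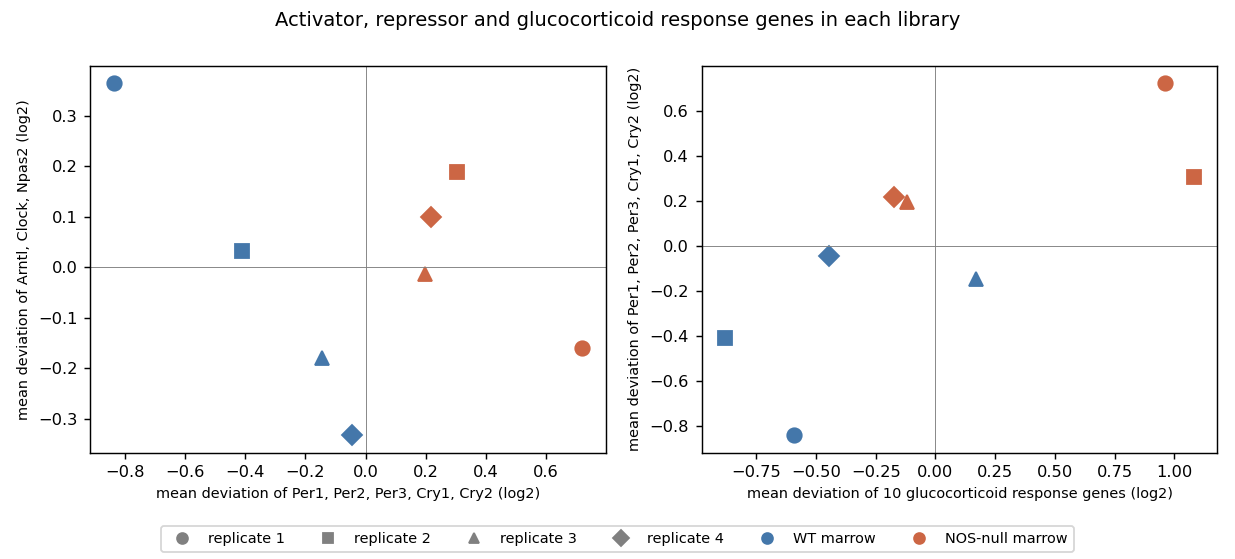
Each point is 1 library, coloured by donor marrow. Left, mean deviation of the 5 repressors (x axis, log2) against that of the 3 activators (y axis, log2): the 4 NOS-null marrow libraries lie at 0.20 to 0.72 on the x axis and the 4 WT marrow libraries at −0.84 to −0.04. Right, mean deviation of 10 glucocorticoid response genes (x axis, log2) against that of the repressors (y axis, log2): NOS-null marrow replicates 1 and 2 lie at 0.96 and 1.08 on the x axis, the other 6 libraries at −0.88 to 0.17.

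Per length of transcript, Nr1d1 was the most abundant member, at a mean of 21.2 FPKM over the 8 libraries (12.9 to 32.3), and it was above Per1 in 8 of 8 libraries. Per1, Clock, Cry2, Arntl, Dbp and Cry1 followed at 12.5, 11.9, 11.4, 10.4, 9.30 and 8.65 FPKM, and no neighbours in this order kept their places in more than 6 of 8 libraries. Per2 (3.61 FPKM) lay below Cry1 in 8 of 8 libraries and above Per3 (3.30) in 7, and Npas2 was lowest at 1.40 FPKM (0.88 to 2.06). With WT marrow Per1 stood at 9.27 ± 3.64 FPKM, below Clock (11.3 ± 1.24), and with NOS-null marrow at 15.8 ± 5.65, above Clock (12.5 ± 0.47).

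Other genes of the clock were taken from lists of further clock factors, of modifiers and of genes that cycle across tissues, 33 in all. Of these 29 were tested, and Arntl2, Rorb, Bhlhe41 and Fbxl21 were too low. None passed with limma, 10 had an unadjusted p under 0.05 (26.6% of all tested genes), and across the alternatives at most 1 passed. Usp2, a deubiquitinase gene under strong clock control, came closest, at 135, 137, 105 and 115 scaled reads with NOS-null marrow and 46.7, 65.6, 90.7 and 80.4 with WT marrow. The groups did not overlap, and the log2 change was 0.82 (SE 0.20, adjusted p = 0.0505).

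The relatives of Dbp stood higher as well. Hlf was at 205, 177, 183 and 146 against 70.5, 57.1, 135 and 121, with no overlap (log2 change 0.96, SE 0.26, adjusted p = 0.0593). Tef was at 2056, 2245, 1353 and 1095 against 677, 941, 915 and 1098, and the groups overlapped only through NOS-null marrow replicate 4 and WT marrow replicate 4 (0.85, SE 0.23, adjusted p = 0.0585). With NOS-null marrow replicates 1 and 2 left out together the log2 change of Tef was 0.44 and that of Hlf 0.85. Rora, an activator of Arntl, stood at 149 ± 14.7 against 105 ± 22.2 (0.52, adjusted p = 0.0893), and Nfil3, a repressor at the D-box, at 127 ± 60.8 against 89.3 ± 14.6 (0.42, adjusted p = 0.328). Of the 8 tested further factors 7 had a positive log2 change (50.1% of all tested genes had), with a median of 0.40.

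Modifiers of the clock proteins went both ways. Of 17 tested, 10 had a positive and 7 a negative log2 change, with a median of 0.09. Timeless, a gene of the replication fork with a debated clock role, stood at 196 ± 24.3 against 275 ± 42.8 (−0.48, adjusted p = 0.0658), and Nono, which encodes a protein that binds period proteins, at 1486 ± 23.3 against 1798 ± 136 (−0.27, adjusted p = 0.0585). Prkaa2, a subunit gene of the AMP-activated kinase that marks cryptochromes for breakdown, stood at 293 ± 24.5 against 221 ± 35.3 (0.41, adjusted p = 0.0833).

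**Figure D4:**
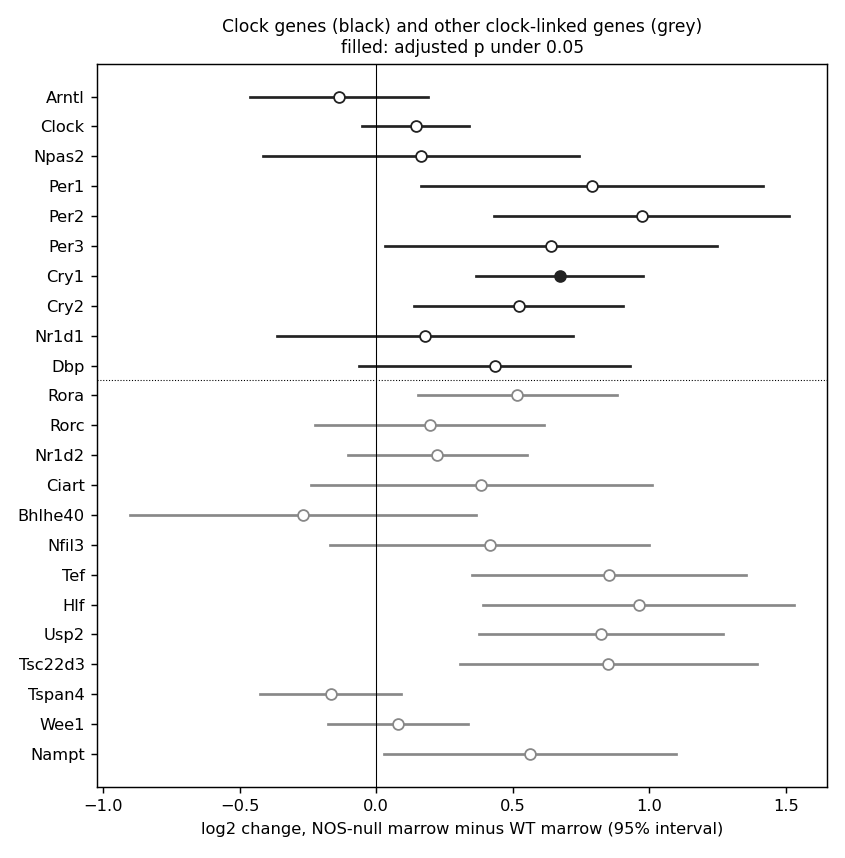
Log2 change, NOS-null marrow minus WT marrow (x axis), with its 95% interval from limma for the 10 members (black, above the dotted line) and the tested further clock factors and cycling genes (grey). The filled symbol, Cry1, is the gene with an adjusted p under 0.05, and the intervals of Per1, Per2, Per3, Cry2, Rora, Tef, Hlf, Usp2, Tsc22d3 and Nampt also lie above 0 before adjustment.

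Glucocorticoid response genes were on average highest in NOS-null marrow replicates 1 and 2. All 10 had a positive log2 change (median 0.69), none passed with limma, and 6 had an unadjusted p under 0.05 (26.6% of all tested genes). Their mean deviation was 0.96, 1.08, −0.12 and −0.17 in NOS-null marrow replicates 1 to 4 and −0.59, −0.88, 0.17 and −0.45 in WT marrow replicates 1 to 4. In each group the library of highest Per1 was the highest or second highest of this list. NOS-null marrow replicate 2, the highest of the list, held the lowest Per1 of its group (469 scaled reads). Fkbp5, a chaperone gene and sensitive target of the glucocorticoid receptor, stood at 1326, 1107, 217 and 232 against 112, 107, 219 and 179 (log2 change 1.82, SE 0.58, adjusted p = 0.0886). Tsc22d3, which is both a glucocorticoid target and a gene that cycles across tissues, stood at 5425, 5010, 3181 and 3281 against 1710, 1933, 3632 and 2238 (0.85, SE 0.25, adjusted p = 0.0698). The part of glucocorticoid response in the values of Per1 was not tested.

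Other families that touch the clock were followed by the same fit. Of 9 immediate early genes tested, 1 fell, Egr1, from 197 ± 28.9 to 120 ± 16.7 (−0.71, SE 0.14, adjusted p = 0.028), and the median of the list was −0.26. The Egr1 call was not kept without NOS-null marrow replicate 2 (adjusted p = 0.0879), without WT marrow replicates 1, 2, 3 and 4 (0.103, 0.0545, 0.0605 and 0.0608) or without both NOS-null marrow replicates 1 and 2 (0.102). Of 7 temperature-responsive genes 1 had a positive and 6 a negative log2 change (median −0.33), none passed, and 2 had an unadjusted p under 0.05, where 26.6% of all tested genes had. The heat shock gene Hsp90aa1 stood at 5788 ± 683 against 7288 ± 946, with no overlap (−0.33, adjusted p = 0.11). The one with a positive change, Cirbp, a cold-induced RNA-binding protein gene, stood at 1297, 838, 483 and 447 against 501, 427, 411 and 385 (0.70, adjusted p = 0.16), highest in NOS-null marrow replicates 1 and 2. Rbm3, the other cold-induced gene of the list, stood at 5047 ± 1038 against 5202 ± 419 (−0.06, adjusted p = 0.79). As the list mixes heat shock and cold-induced genes, its count of signs and its median give no direction for temperature. Of 5 tested relatives of Clock and Arntl in the PAS family none passed and 4 had an unadjusted p under 0.05 (26.6% of all tested genes). Hif1a, the hypoxia-inducible factor gene, stood at 1005 ± 37.6 against 1191 ± 47.3 (−0.25, adjusted p = 0.0602) and Hif3a at 127, 105, 28.6 and 29.4 against 9.94, 12.2, 26.6 and 21.7 (1.77, adjusted p = 0.0731), both with groups that did not overlap.

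Genes whose course over the 8 libraries was closest to that of Arntl were sought by the root mean square difference of centred log2 values. The 5 closest were Fahd1, 2410017P09Rik, Zfp367, Cryz and Alkbh8, at 0.083 to 0.087, and the 5 closest to its mirror image were Chka, Zfp142, Patz1, Zfp319 and Rab40c, at 0.075 to 0.092. For Dbp the 5 closest were Pcdh1, Hunk, A4galt, Pcdhgb6 and Traf3ip2, at 0.109 to 0.148. No member of the clock was among these genes. The measure depends on the size of the deviations as well as on their direction. A member of much wider spread than Arntl could therefore not come close to it, whatever its course.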

How the data were processed

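Whole lung RNA of 8 mice was sequenced as single reads from bead-purified mRNA, per the labels' protocols. Per the submitters' processing notes the tools were CASAVA 1.8.2, TopHat2 2.0.13, Bowtie2 2.2.3, SAMtools 0.1.19 and Cufflinks 2.2.1, with mm10 as the build. The sources used here do not give annotation, settings or strand. The main table holds signal values that the authors had made from read counts by 1 size factor per library, and FPKM values came from the authors' second table. Both tables are laid out like Cuffnorm output, per the file headers. Groups were read from the sample titles, since the series text gives both groups the NOS-null marrow.

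Scaled reads were tested as log2(value + 1) with limma 3.58.1 (R 4.3.3, trend), over genes of at least 10 in at least 4 libraries, with no other term. In each library 98.6 to 98.9% of values above 0 were whole multiples of 1 step (to 0.05), but a few were smaller than it, so reads were not taken as recovered and no count model was used. The procedure was tested on simulated data. Gene positions came from GENCODE M21 (GRCm38). The members and lists were chosen with earlier results of these data known. All members were named, and from each other list the called genes and the 4 of smallest p were eligible. Clock genes too low to be tested were named after their values were seen. Csnk1d was named only for a library far from the others of its group, and Rbm3 only as the other cold-induced gene of its list. Ciart and Cipc are in the table as Gm129 and 2310045N01Rik, and Siglecf and Chil3 as Siglec5 and Chi3l3. The genes closest to the mirror image of Dbp are not reported here.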

Additional observations from a re-analysis of the deposited data

Results flagged for a closer look

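In groups of 4 libraries, 3 of 78 gene and group combinations tested (members and other clock genes) had 1 library far from the other 3, where chance gives about 1 in 20. Per1 stood at 905 scaled reads in NOS-null marrow replicate 1 and at 469 to 513 in the other 3. Per2 stood at 275 in the same library and at 203 to 207 in the other 3. Csnk1d stood at 1044 in NOS-null marrow replicate 4 and at 959 to 973 in the other 3.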

How the results depend on the processing

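Every member except Npas2 and Nr1d1 kept the direction of its change under all 16 alternatives. Arntl kept it only barely, at −0.009 without WT marrow replicate 1. Without 1 library Npas2 ran from −0.010 (without WT marrow replicate 4) to 0.39 and Nr1d1 from −0.012 (without WT marrow replicate 2) to 0.43. Leaving out 1 library at a time gave 71 to 798 called genes, 0 to 1 called members and 0 to 1 other called clock genes, against 567, 1 and 0 with all libraries. Without both NOS-null marrow replicates 1 and 2 there were 181 called genes and 0 called members. With a pseudocount of 5 and with robust moderation 1 other clock gene was called, Usp2 in both (adjusted p = 0.0491 and 0.0448). Without NOS-null marrow replicates 3 and 4 it was Usp2 and Tef in turn. With the replicate block 135 genes and 0 members were called, and Cry1 had an adjusted p of 0.0617. The replicate numbers were not taken as pairs, since same-numbered libraries correlated at 0.04, 0.17, −0.003 and 0.15 in their deviations from the group means, and 2 of 4 correlated best with their own number. The activator mean minus the repressor mean ran from −0.87 (without WT marrow replicate 4) to −0.37 (without WT marrow replicate 1) over the fits without 1 library. TMM factors, a pseudocount of 0.5, no filter and the FPKM table changed no call of a member. The count-model alternatives were not run, as whole reads were not recovered. Depth limits Npas2 most, at 29.3 to 68.6 scaled reads.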
